A study of Mus musculus with 96 samples.

Results

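The genes described here are 8 complement genes of the mouse heart ventricle: C7, C3, C4b, the 3 C1q subunit genes C1qa, C1qb and C1qc, C1ra, and Serping1. They were chosen by their CPM (counts relative to library size, in the usual unit) over circadian time in the same 96 libraries that are described here, out of 55376 genes in the table, so their own values are given as a description without p-values. Complement is a cascade of plasma and tissue proteins that marks microbes and dying cells and recruits phagocytes. In the classical pathway the recognition molecule C1q activates the proteases C1r and C1s, which cleave C4 and C2 to form an enzyme that splits C3, the component on which all pathways converge. C3 fragments coat surfaces, and further cleavage starts the terminal pathway, in which C7 gives the growing membrane attack complex its hold on a lipid membrane. C1 inhibitor, the product of Serping1, blocks C1r and C1s. The liver supplies most circulating complement, and tissue macrophages are the main source of C1q.

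All mice carried the genotype labelled iCSBmal1 KO, an inducible knockout of the clock gene Bmal1 (gene symbol Arntl) that is specific to cardiomyocytes. The 4 groups were females given tamoxifen, males given tamoxifen, females given vehicle and males given vehicle, here called tamoxifen females, tamoxifen males, vehicle females and vehicle males. Each group held 24 libraries, 2 at each of 12 circadian times (ct) that ran every 4 h from ct 18 to ct 62. The vehicle groups carry the same genotype. A difference between tamoxifen and vehicle thus holds both the drug and the induced deletion, which cannot be told apart. A deletion specific to cardiomyocytes would leave Bmal1 in the other cell types of the ventricle, which was not tested here. The labels give no age, no driver of the recombinase and no statement that libraries came from separate animals, so p-values measure the spread between libraries.

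Library totals ran from 8944955 to 20596194 counts. Arntl, the targeted gene, averaged 17.3 ± 7.40 CPM in tamoxifen females and 14.7 ± 8.08 CPM in tamoxifen males, against 20.8 ± 18.9 CPM in vehicle females and 16.8 ± 14.4 CPM in vehicle males (SD, n = 24 each). These average CPM were lower with tamoxifen, while the fitted mean on the log2 scale was higher, by 0.44 ± 0.15 in females and 0.36 ± 0.15 in males (log2 ± SE; edgeR, adjusted p = 0.0195 and 0.0287). Its fitted daily amplitude was 0.87 in both tamoxifen groups, against 2.38 in vehicle females and 2.05 in vehicle males, and this change of rhythm was called in both sexes (adjusted p = 1.19e-05 and 0.000631). The library labelled Tam_F_ct54_559 went against its label, with 0.272 CPM of Xist and 11.3 CPM of Ddx3y, where the other 23 tamoxifen females held at least 194.1 CPM and at most 0.117 CPM of them. Ddx3y ran from 121.7 to 199.2 CPM in tamoxifen males and from 133.5 to 202.6 CPM in vehicle males. The Ddx3y of this library thus lay above that of the other females and below that of every male library. 13 libraries held more than 20 CPM of the atrial gene Myl7 (1 of the tamoxifen females, 2 of the tamoxifen males, 7 of the vehicle females and 3 of the vehicle males). 10 vehicle male libraries stood apart in their share of counts at loci of the annotation class TEC, and leaving them out is among the settings given beside the results. The numbers in the library titles fell into 3 runs, 1 over both tamoxifen groups, 1 in vehicle females and 1 in vehicle males, which held all 10 TEC-high libraries. Any difference in handling between these runs cannot be told apart from the tamoxifen effects, the sex difference in vehicle hearts or the interaction.

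The C1q genes lie next to each other on the minus strand of chromosome 4 between 136880129 and 136898803 (GRCm38, GENCODE M21 annotation). C7 lies on chromosome 15 (4988762 to 5063740, minus strand) between C6 and C9, which encode other terminal components. C3 (57203970 to 57228136) and C4b (34728380 to 34743882) are on the minus strand of chromosome 17, and C4b has its copy C4a nearby. C1ra (124512405 to 124523443, plus strand) stands on chromosome 6 beside C1s1, C1rl and the copy C1rb, and Serping1 on chromosome 2 (84765387 to 84775444, minus strand). Of the 50-base words in their annotated transcripts, 35.2% of those of C4b also occur in C4a and 50.8% of those of C1ra also occur elsewhere, chiefly in C1rb, so counts of these 2 genes are uncertain to the extent that shared reads were dropped or split. The other 6 members shared none. C7 overlaps the small gene Gm25652 on the opposite strand, C3 overlaps the microRNA gene Mir6978 on its own strand, and the labels do not say whether counting used strand.

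Promoter sequence was available for 5 of the 8 members in the RefSeq table (build GRCm38.p6; 250 bases before to 50 bases after the start site), and C1qa, C4b and Serping1 were not in it. The 4 shown are those of C7, which had the largest sex difference of the members, of C1qb and C1qc, whose levels followed each other most closely among members with a promoter there, and of C1ra, the protease of the same complex. Each is read 5′ to 3′ on the gene's strand, and capitals mark every match to the 3 motifs searched on both strands: CACGTG (the E-box, the site of BMAL1 and CLOCK), TTATGNAA (the D-box) and AGGTCA (a core sequence of nuclear receptor sites).
C7 promoter, chr15:5063724-5064023, minus strand: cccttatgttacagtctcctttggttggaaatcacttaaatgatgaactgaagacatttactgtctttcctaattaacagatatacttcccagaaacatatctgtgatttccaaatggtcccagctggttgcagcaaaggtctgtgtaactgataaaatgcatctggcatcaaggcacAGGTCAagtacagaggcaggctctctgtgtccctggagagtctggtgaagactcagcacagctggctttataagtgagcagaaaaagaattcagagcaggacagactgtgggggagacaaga
C1qb promoter, chr4:136886151-136886450, minus strand: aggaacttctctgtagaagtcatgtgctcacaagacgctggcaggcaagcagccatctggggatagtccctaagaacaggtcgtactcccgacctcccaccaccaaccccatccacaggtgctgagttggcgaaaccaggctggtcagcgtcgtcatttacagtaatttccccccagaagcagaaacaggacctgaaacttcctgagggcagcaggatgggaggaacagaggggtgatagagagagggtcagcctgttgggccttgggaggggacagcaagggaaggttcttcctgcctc
C1qc promoter, chr4:136892865-136893164, minus strand: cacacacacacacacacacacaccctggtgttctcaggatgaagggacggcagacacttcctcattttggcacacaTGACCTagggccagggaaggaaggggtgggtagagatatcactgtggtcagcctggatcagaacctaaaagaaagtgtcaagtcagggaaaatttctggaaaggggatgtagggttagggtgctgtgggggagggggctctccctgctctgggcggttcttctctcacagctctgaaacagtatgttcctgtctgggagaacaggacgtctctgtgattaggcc
C1ra promoter, chr6:124512371-124512670, plus strand: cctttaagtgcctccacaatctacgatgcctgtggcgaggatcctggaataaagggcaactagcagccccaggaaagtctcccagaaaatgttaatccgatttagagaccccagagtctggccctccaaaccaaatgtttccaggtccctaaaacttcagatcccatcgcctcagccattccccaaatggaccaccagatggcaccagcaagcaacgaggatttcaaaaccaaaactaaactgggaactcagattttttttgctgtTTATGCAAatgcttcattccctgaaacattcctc
The C7 window held AGGTCA, which starts at base -72 from the start site, and the C1qc window held it on the opposite strand, with its first base at -174. The C3 window, not shown, held AGGTCA at -243. The C1ra window held a D-box match that begins at base 16 after the start, and no motif was found in that of C1qb. CACGTG was in none of the 5 windows. Over all 32851 promoters of the table, 16.26% held AGGTCA, 7.15% held CACGTG and 3.385% held TTATGNAA. A match is a stretch of letters and no match says only that these letters are not in this window.

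Per kilobase of exon, C7 was the lowest of the members in both female groups and stood above C1ra and C4b in both male groups. In tamoxifen females Serping1 stood first with 55.0 ± 9.26 CPM per kb and C3 second with 42.4 ± 11.6 CPM per kb, followed by C1qa with 35.01 ± 5.15, C1qb with 31.2 ± 4.07, C1qc with 15.9 ± 2.43, C1ra with 8.76 ± 1.55, C4b with 3.47 ± 1.27 and C7 last with 1.499 ± 0.4802 CPM per kb (SD, n = 24). Serping1 exceeded C3 by more than the SD of either, C3, C1qa and C1qb differed from their neighbours by less than the larger SD, and C1qc, C1ra, C4b and C7 each stood below the one before by more than the SD of either. In vehicle males C1qa was first with 50.9 ± 12.1 CPM per kb and Serping1 next with 50.04 ± 7.57 CPM per kb. C7 there reached 10.2 ± 4.41 CPM per kb, against 1.61 ± 0.439 CPM per kb in vehicle females. C1ra with 7.38 ± 1.41 CPM per kb and C4b with 5.02 ± 2.11 CPM per kb came after it. The median count per library was 63 or more for each member in each group, and no library was at 0.

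**Figure D1:**
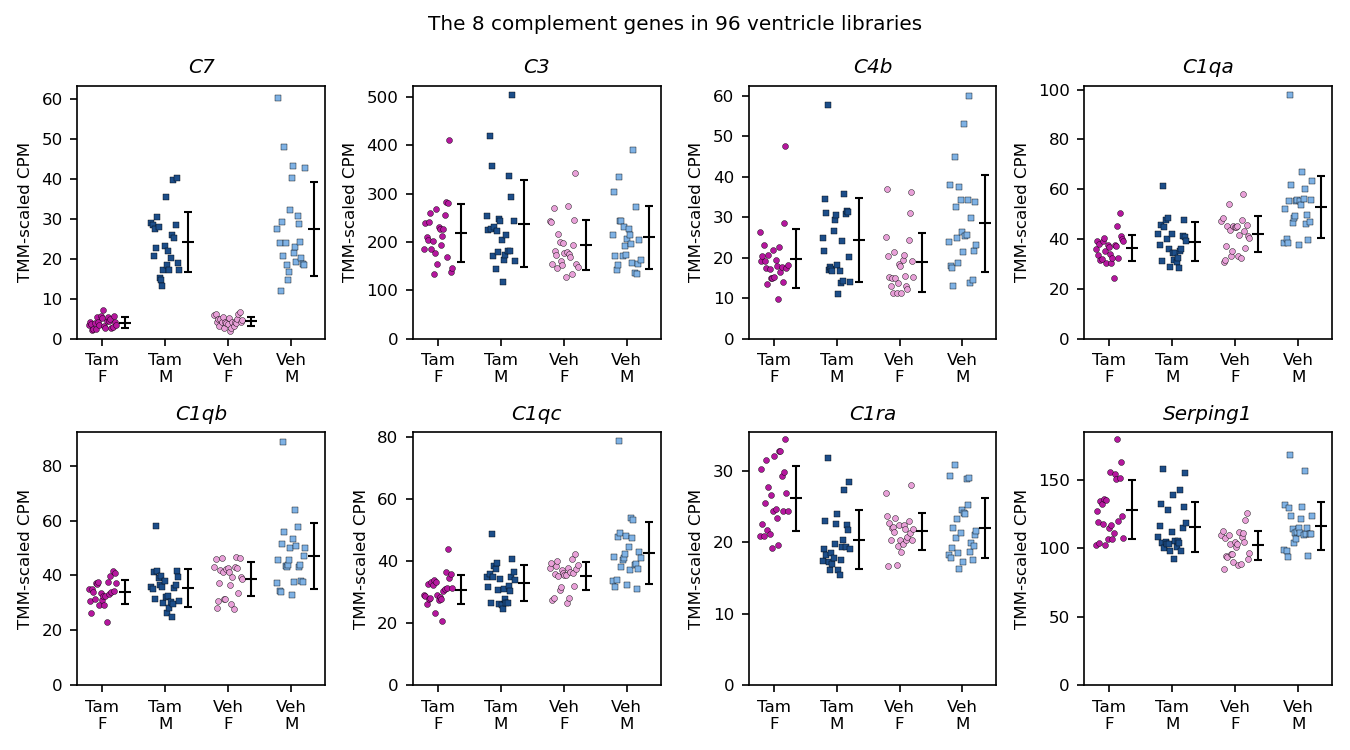
Level of each of the 8 complement genes in every library (points, TMM-scaled CPM on linear axes from 0), in tamoxifen females, tamoxifen males, vehicle females and vehicle males from left to right, with the mean and SD of the 24 libraries beside each column. The points of C7 separate the sexes with no overlap, and the points of the other 7 genes overlap between all groups.

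Changes were read from 1 model of the 96 libraries that gives each group its own level and its own 24-h wave, in which a gene is called at a Benjamini-Hochberg adjusted p under 0.05 over the 15629 genes tested (edgeR quasi-likelihood). Calls were common in this series, and the members were chosen by the same values, so the counts of members are given beside the share of all genes called and nothing is read from them. With tamoxifen, 5 of the 8 members were called in females, where 27.5% of all genes were, and 3 of the 8 in males, where 70% were. Between the sexes, 2 members were called in tamoxifen hearts (7.68% of all genes) and 6 in vehicle hearts (68.3%). The difference between the tamoxifen effects of females and males, the interaction, was called for 3 members (52.3%). A 24-h rhythm was called for 0 members in tamoxifen females (17.1%), 0 in tamoxifen males (8.03%), 1 in vehicle females (34.5%) and 4 in vehicle males (55.2%). A change of rhythm with tamoxifen was called for 0 members in females (0.237%) and 0 in males (20.7%). Without the 10 TEC-high vehicle male libraries a rhythm was called for 18.6% of all genes in vehicle males and a change of rhythm in males for 2.56%, and in the second 24 h alone these shares were 25.1% and 0.00643%. At an unadjusted p under 0.05 the rhythm counts of members were 0 in tamoxifen females, 0 in tamoxifen males, and for the changes 0 in females and 3 in males.

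C7 was about 6-fold lower in females than in males, with or without tamoxifen. Tamoxifen females held 4.01 ± 1.29 CPM (lowest 2.14, median 3.99, highest 7.22) and tamoxifen males 24.1 ± 7.49 CPM (13.3, 23.03 and 40.2). Vehicle females held 4.32 ± 1.17 CPM (1.91, 4.09 and 6.64) and vehicle males 27.4 ± 11.8 CPM (11.8, 23.9 and 60.3; SD, n = 24 each). The highest of the 48 female libraries thus lay below the lowest of the 48 male libraries. On the log2 scale the female minus male difference was -2.58 ± 0.12 in tamoxifen hearts (5.97-fold lower in females) and -2.59 ± 0.12 in vehicle hearts (6.03-fold lower; value ± SE). It had this direction at 12 of 12 times in both, and the ratio of the time means ran from 3.73-fold to 9.13-fold in tamoxifen hearts and from 3.11-fold to 12.95-fold in vehicle hearts. By absolute size, C7 ranked 3 of 14996 autosomal genes tested in tamoxifen hearts and 5 in vehicle hearts. The library Tam_F_ct54_559 held 5.61 CPM of C7, inside the range of the other females.

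The mean level of C7 was not called as changed by tamoxifen. The difference from vehicle was -0.11 ± 0.13 in females and -0.13 ± 0.11 in males (log2 ± SE), lower with tamoxifen at 9 of 12 times in females and 7 of 12 in males, and the levels overlapped. The 95% interval was -0.38 to 0.15 in females and -0.34 to 0.09 in males, and the 2 sex differences differed by 0.01 ± 0.18. Without the libraries high in Myl7 the female value was 0.02, and without ct 22 the male value was -0.02.

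**Figure D2:**
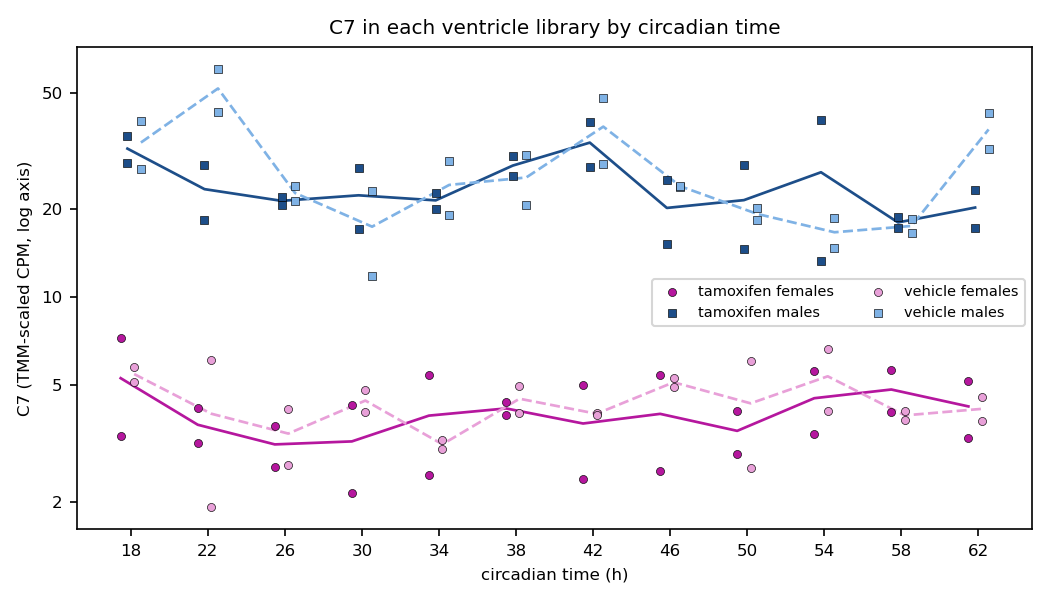
C7 in each library (points, TMM-scaled CPM on a log axis) against circadian time in hours, with lines through the mean of the 2 libraries of a group at each time (solid for tamoxifen, dashed for vehicle). The male libraries lie above all female libraries at every time, and the vehicle males reach their highest mean, 51.7 CPM, at ct 22.

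C7 varied over the day most in vehicle males. Its fitted amplitude, which is how far the wave's peak lies above its middle on the log2 scale, was 0.17 ± 0.14 in tamoxifen females and 0.09 ± 0.13 in vehicle females. In tamoxifen males it was 0.20 ± 0.11 with a peak at ct 17.9, and the time means lay between 18.01 CPM (ct 58) and 33.8 CPM (ct 42). The library labelled Tam_M_ct54_556 held 1.31 CPM of Arntl, against 17.8 CPM in the other tamoxifen male library at ct 54. Without Tam_M_ct54_556 the amplitude in tamoxifen males was 0.32 ± 0.11. In vehicle males the amplitude was 0.61 ± 0.11 with a peak at ct 18.5, which makes the fitted peak 2.34-fold of the trough. The ± of an amplitude is an SE derived from the joint test of the wave's cosine and sine. As an amplitude is never below 0, it is not read against its SE like a mean difference. The means of the 2 vehicle male libraries at a time were 33.8 CPM at ct 18, 51.7 at ct 22, 22.7 at ct 26, 17.4 at ct 30, 24.2 at ct 34 and 25.7 at ct 38. In the next 24 h they were 38.3 CPM at ct 42, 23.95 at ct 46, 19.3 at ct 50, 16.7 at ct 54, 17.5 at ct 58 and 37.5 at ct 62. High values thus stood at ct 18 to ct 22 and again at ct 42 and ct 62. The wave that separates tamoxifen males from vehicle males had an amplitude of 0.42 ± 0.15 and was not called. Its amplitude was 0.29 ± 0.15 without Tam_M_ct54_556. Leaving out ct 22 gave an amplitude of 0.52 in vehicle males, the lowest of the 12 values without a time, leaving out the libraries high in Myl7 gave 0.58, and leaving out the TEC-high libraries gave 0.76. The vehicle male library with the most C7, 60.3 CPM at ct 22, was also high in Myl7 (453.1 CPM).

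The genes whose level followed C7 most closely within groups, by the median over the 4 groups of Pearson's r across 24 libraries among 11051 genes of at least 5 CPM, were Lrp1 (0.667), Ace (0.646), Timp2 (0.644), Fn1 (0.610) and Slit3 (0.585). Ace encodes angiotensin-converting enzyme, and Lrp1 a large endocytic receptor. Timp2 encodes an inhibitor of metalloproteinases, Fn1 fibronectin and Slit3 a secreted guidance protein. These points share libraries, depth and time of day, so r is a description. Ace was also lower in females, by -0.66 ± 0.06 in tamoxifen hearts and -0.63 ± 0.06 in vehicle hearts on the log2 scale (edgeR, adjusted p = 3.2e-16 and 1.5e-15), a smaller difference than that of C7. Slit3 was lower in females in tamoxifen hearts (-0.40 ± 0.11, adjusted p = 0.0124), with -0.06 ± 0.11 in vehicle hearts (adjusted p = 0.627). Lrp1 was higher in females, by 0.24 ± 0.06 and 0.28 ± 0.06 (adjusted p = 0.00241 and 1.78e-05), and so was Timp2, by 0.18 ± 0.05 and 0.17 ± 0.05 (adjusted p = 0.0168 and 0.00363).

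Of the other terminal components only C8g was tested. Hc (the mouse C5 gene), C6, C8a, C8b and C9 did not pass the filter on low counts, with means of at most 0.304 CPM and 0 counts of C8b in all 96 libraries. C8g, the gamma chain of C8, was tested and averaged 1.77 ± 0.411 CPM in tamoxifen females and 2.08 ± 0.376 CPM in tamoxifen males, against 1.93 ± 0.465 CPM in vehicle females and 2.67 ± 0.742 CPM in vehicle males. It fell with tamoxifen in males (-0.34 ± 0.09, adjusted p = 0.000771) and was lower in females than in males in vehicle hearts (-0.46 ± 0.09, adjusted p = 8.58e-06). Its sex difference in tamoxifen hearts was -0.23 ± 0.09 (adjusted p = 0.122).

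The C1q subunit genes were lower with tamoxifen in both sexes and highest in vehicle males. C1qa, the A chain, averaged 36.4 ± 5.35 CPM in tamoxifen females (lowest 24.2, median 37.0, highest 50.3) and 39.0 ± 7.72 CPM in tamoxifen males (28.5, 38.3 and 61.4), against 41.97 ± 7.09 CPM in vehicle females (30.9, 43.4 and 58.1) and 52.9 ± 12.6 CPM in vehicle males (37.4, 52.7 and 97.8; SD, n = 24 each). C1qb, the B chain, averaged 33.9 ± 4.43 CPM in tamoxifen females and 35.4 ± 6.81 CPM in tamoxifen males, against 38.6 ± 6.11 CPM in vehicle females and 47.1 ± 11.9 CPM in vehicle males. C1qc, the C chain, averaged 30.7 ± 4.70 CPM in tamoxifen females and 32.9 ± 5.79 CPM in tamoxifen males, against 35.2 ± 4.40 CPM in vehicle females and 42.7 ± 10.01 CPM in vehicle males. All groups overlapped for each of the 3 genes. On the log2 scale the tamoxifen effect on C1qa was -0.19 ± 0.07 in females and -0.43 ± 0.07 in males (± SE), that on C1qb was -0.18 ± 0.07 and -0.40 ± 0.07, and that on C1qc -0.19 ± 0.07 and -0.36 ± 0.07. Tamoxifen hearts had the lower mean at 9 or 10 of the 12 times in females and at 10 or 11 in males. Females were lower than males in vehicle hearts, by -0.33 ± 0.07 for C1qa, -0.28 ± 0.07 for C1qb and -0.27 ± 0.07 for C1qc. In tamoxifen hearts the sex differences were -0.10 ± 0.07, -0.06 ± 0.07 and -0.10 ± 0.07. The interaction was 0.24 ± 0.10 for C1qa, 0.22 ± 0.10 for C1qb and 0.17 ± 0.09 for C1qc, and it was not called for C1qb or C1qc.

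**Figure D3:**
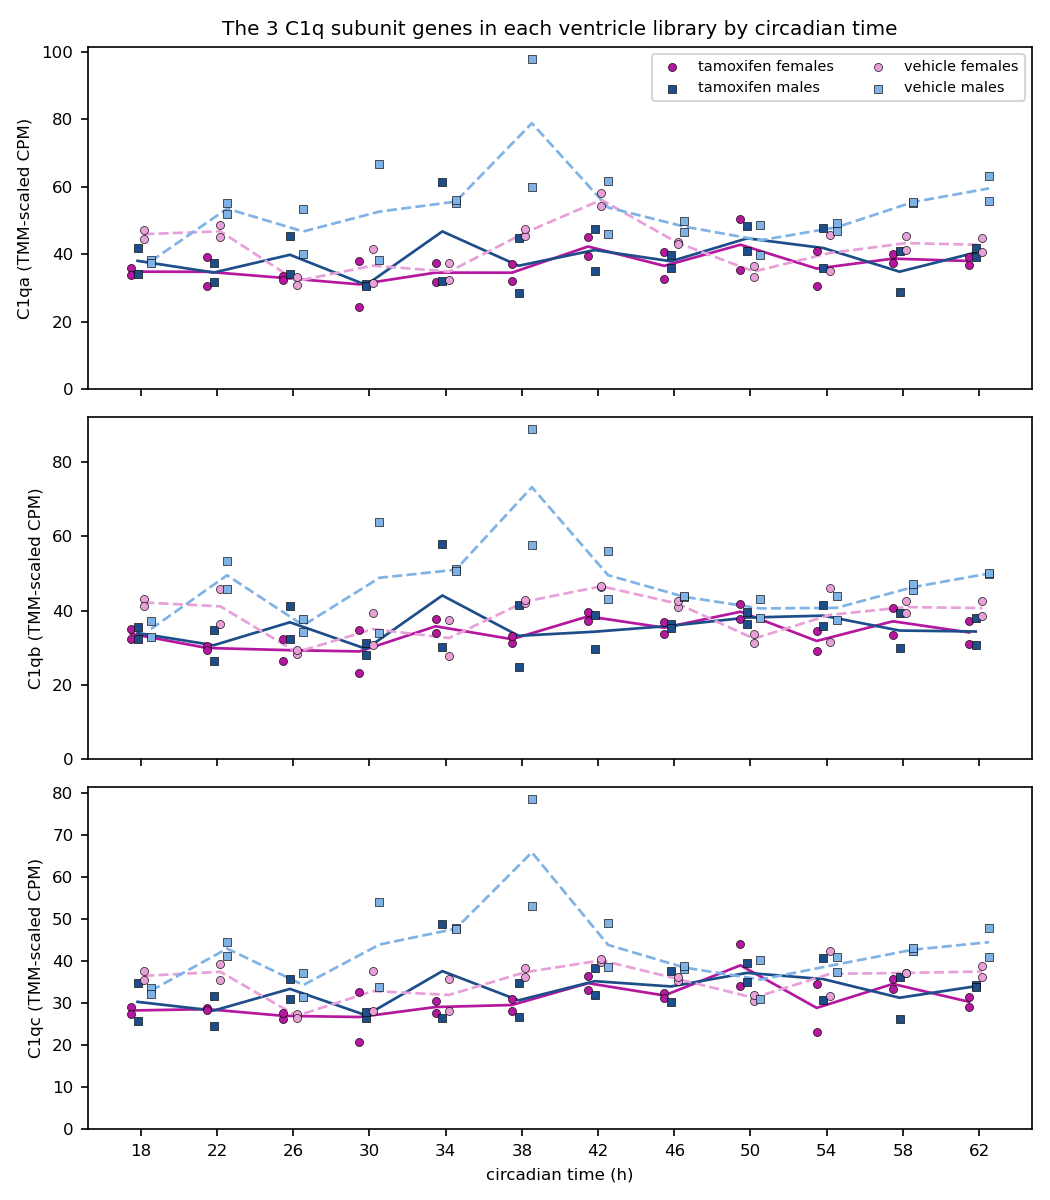
C1qa, C1qb and C1qc in each library (points, TMM-scaled CPM, linear axes from 0) against circadian time in hours, with lines through the mean of the 2 libraries of a group at each time (solid for tamoxifen, dashed for vehicle). The vehicle males stand highest at ct 38, where C1qa reached a mean of 78.9 CPM, and all 3 genes show the same library at the top.

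A correction of each library for gene length and GC content narrowed the differences in males and between the sexes. With it, the tamoxifen effect in males was -0.23 for C1qa, -0.22 for C1qb and -0.23 for C1qc, and in females -0.21, -0.20 and -0.21. The sex difference in vehicle hearts was -0.09, -0.04 and -0.10 under it and was no longer called for any of the 3, and the interaction of C1qa became 0.02. Without Tam_F_ct54_559 the interaction of C1qa was 0.22 and no longer called. In the second 24 h alone the effects in females were -0.15, -0.15 and -0.13 and were not called. The female count of called members (5) was 2 in each 24 h alone, and 2 without ct 22 or without ct 54. Without the 10 TEC-high vehicle male libraries the effect in males was -0.46, -0.44 and -0.40.

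Markers of macrophages, the usual source of C1q, fell with tamoxifen where they were called. Their 12 genes were all tested and detected, with none at 0. Their summed level ran from 197 to 411 CPM in tamoxifen females and from 245 to 428 CPM in tamoxifen males, against 278 to 449 CPM in vehicle females and 308 to 513.9 CPM in vehicle males. With tamoxifen 6 of the 12 fell and 0 rose in females (Cd163, Cd68, Csf1r, Lyve1, Mertk and Mrc1), and 7 fell and 0 rose in males (Ccr2, Cd14, Cd68, Cx3cr1, Lyve1, Lyz2 and Mertk). Of all genes tested 27.5% were called in females and 70% in males. The list's median was -0.19 in females and -0.31 in males, against 0.01 and -0.05 over all genes tested. In males Adgre1 (0.17), Csf1r (0.02), Cd163 (0.02), Mrc1 (-0.04) and Fcgr1 (-0.21) were not called. The interaction was called for 6 of the 12 markers, and for 52.3% of all genes. It was positive for Ccr2, Cx3cr1 and Lyz2 and negative for Adgre1, Cd163 and Csf1r. Between the sexes in vehicle hearts 6 of the 12 were lower and 3 higher in females, where 68.3% of all genes were called. Markers of other cell types moved too. All 8 endothelial markers fell with tamoxifen in males (median -0.38) and were lower in females in vehicle hearts (-0.44), and 2 of them fell with tamoxifen in females (-0.07). The 3 lymphocyte markers and the 2 neutrophil markers that could be tested also fell in males (medians -0.66 and -1.91) and were lower in females in vehicle hearts (-0.85 and -1.77), while none was called in females with tamoxifen. Other lists did not only fall in males. With tamoxifen 3 of 5 mesothelial markers rose and 1 fell there (median 0.85). Of 6 cardiomyocyte markers 4 rose and 2 fell (0.18), and of 6 mural markers 1 rose and 2 fell (-0.10). In bulk tissue fewer cells of a type and less RNA per cell cannot be told apart, and the part of macrophage or endothelial number in the C1q values was not tested. The median r within groups between the macrophage sum and C1qa was 0.764, that with C1qb 0.781 and that with C1qc 0.801. The genes that followed C1qa most closely were Cbr2 (0.814), Fcgr3 (0.799), Tyrobp (0.760), Ccl9 (0.731) and Cotl1 (0.719). Fcgr3 encodes an Fc receptor and Tyrobp the adaptor of several myeloid receptors. All 5 fell with tamoxifen in males, by 0.39 ± 0.08 for Cbr2, 0.41 ± 0.07 for Fcgr3, 0.67 ± 0.08 for Tyrobp, 0.68 ± 0.10 for Ccl9 and 0.50 ± 0.08 for Cotl1 on the log2 scale (edgeR, largest adjusted p = 6.23e-06, for Cbr2). In females Ccl9 fell by 0.40 ± 0.10 and Cbr2 by 0.20 ± 0.08 (adjusted p = 0.000798 and 0.0433). The female values of Fcgr3, Tyrobp and Cotl1 were -0.18 ± 0.07, -0.04 ± 0.08 and -0.19 ± 0.08 (adjusted p = 0.0507, 0.758 and 0.0549).

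The 3 C1q genes varied together. Within groups the median r was 0.935 for C1qa with C1qb, 0.920 for C1qa with C1qc and 0.910 for C1qb with C1qc (24 libraries in each of 4 groups), and it was 0.888, 0.864 and 0.875 without the 2 libraries farthest from the median. With tamoxifen the amplitudes of the 3 genes were 0.03 to 0.05 in females and 0.01 to 0.07 in males, each with an SE of 0.07. C1qa had an amplitude of 0.24 ± 0.07 in vehicle females, with a peak at ct 17.1, and of 0.22 ± 0.07 in vehicle males, with a peak at ct 12.8 (log2 units). In vehicle males the amplitudes of C1qb and C1qc were 0.23 ± 0.07 and 0.24 ± 0.07. The change of rhythm was 0.20 ± 0.10 in females and 0.21 ± 0.10 in males for C1qa. Those of C1qb and C1qc were 0.15 ± 0.10 and 0.14 ± 0.09 in females and 0.24 ± 0.10 and 0.24 ± 0.09 in males. None of these changes of rhythm was called. A single vehicle male library, at ct 38, was the highest of all 96 for each gene, with 97.8 CPM of C1qa, 88.9 CPM of C1qb and 78.6 CPM of C1qc. Without ct 38 the tamoxifen effects in males were -0.37, -0.34 and -0.30, and the amplitudes in vehicle males were 0.12, 0.11 and 0.13. The rhythm calls of the 3 genes were also lost under the length and GC correction.

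C1ra and Serping1, a protease of the C1 complex and its inhibitor, had higher means with tamoxifen than with vehicle in females, and in males the means lay within 1 SD of each other. C1ra averaged 26.1 ± 4.61 CPM in tamoxifen females (lowest 19.2, median 25.1, highest 34.4) and 20.4 ± 4.15 CPM in tamoxifen males (15.4, 19.2 and 31.8), against 21.5 ± 2.57 CPM in vehicle females (16.6, 21.6 and 28.0) and 22 ± 4.20 CPM in vehicle males (16.3, 21.1 and 30.8). Serping1 averaged 127.8 ± 21.5 CPM in tamoxifen females (102.0, 121.5 and 179.6) and 115.4 ± 18.6 CPM in tamoxifen males (92.3, 106.8 and 158.0), against 102.1 ± 10.6 CPM in vehicle females (84.7, 103.2 and 125.4) and 116.3 ± 17.6 CPM in vehicle males (93.2, 111.4 and 167.7). Tamoxifen females stood highest in both genes, and the groups overlapped. Without Tam_F_ct54_559, the library with the most C1ra, the effects in females were 0.25 for C1ra and 0.30 for Serping1. Over all libraries the tamoxifen effect on C1ra was 0.28 ± 0.07 in females and -0.11 ± 0.07 in males, and that on Serping1 was 0.32 ± 0.06 in females and -0.01 ± 0.06 in males (log2 ± SE). In females the tamoxifen mean was the higher at 11 of 12 times for both genes. The effects of the sexes differed by 0.39 ± 0.10 for C1ra and 0.33 ± 0.08 for Serping1. Females were higher than males in C1ra in tamoxifen hearts (0.36 ± 0.07) and near them in vehicle hearts (-0.03 ± 0.07), and for Serping1 these differences were 0.15 ± 0.06 and -0.19 ± 0.06, the second of which was -0.08 and not called under the length and GC correction.

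**Figure D4:**
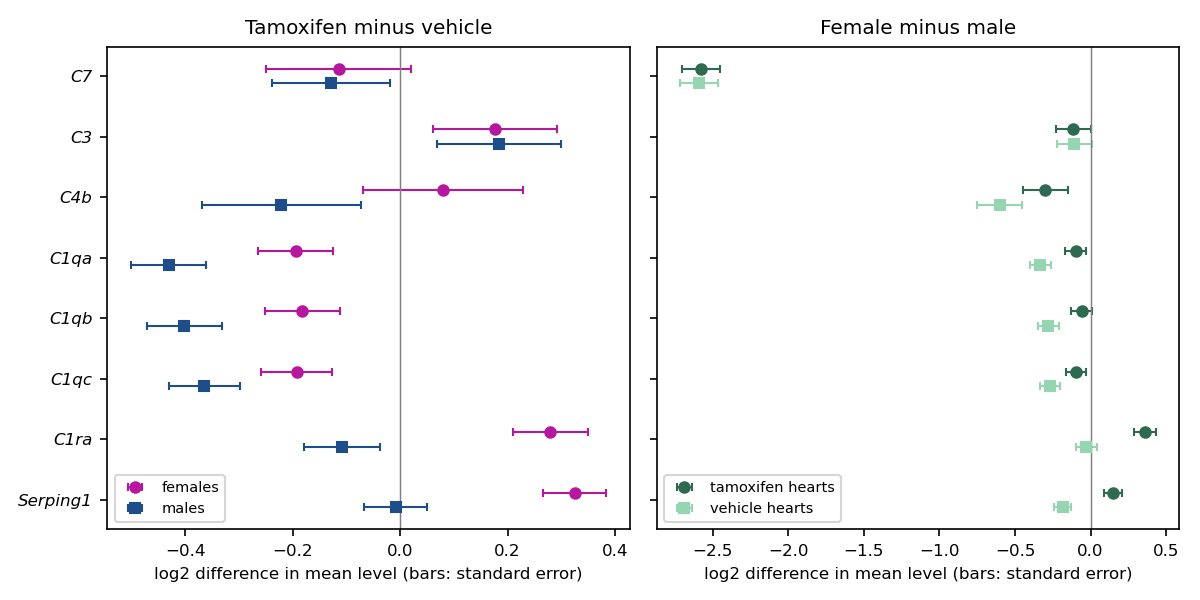
Log2 differences in mean level of the 8 members (points, bars show the standard error), on the left tamoxifen minus vehicle in females and males and on the right female minus male in tamoxifen and vehicle hearts. C7 stands apart in the sex differences, at -2.58 and -2.59, while C1ra and Serping1 lie above 0 with tamoxifen in females and the C1q genes below 0 in both sexes.

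Most fibroblast markers rose with tamoxifen in females, as these 2 genes did. All 8 were tested with none at 0, and their summed level ran from 967 to 1743 CPM in tamoxifen females and from 894 to 1737 CPM in tamoxifen males, against 940 to 1509 CPM in vehicle females and 921 to 1803 CPM in vehicle males. With tamoxifen 6 of the 8 rose in females (Dcn, Dpt, Lum, Mfap5, Pdgfra and Tcf21) and 0 fell, and in males 0 rose and 2 fell (Dpt and Mfap5). The interaction was called for the same 6 that rose in females. These calls stood beside 27.5% of all genes called with tamoxifen in females, 70% in males and 52.3% for the interaction. Between the sexes 6 of the 8 markers were higher and 0 lower in females in tamoxifen hearts (7.68% of all genes called). In vehicle hearts 2 were higher in females (Lum and Pdgfra) and 1 lower (Dcn), with a median of -0.03 (68.3%). Within groups the median r with the fibroblast sum was 0.864 for Serping1 and 0.730 for C1ra, and between C1ra and Serping1 it was 0.793. The part of fibroblast number in these values was not tested. In the second 24 h alone the interaction was 0.20 for C1ra and 0.24 for Serping1 and neither was called, and without the TEC-high libraries it was 0.32 for both. Neither gene had a marked rhythm, with amplitudes of 0.03 to 0.14 for C1ra and 0.06 to 0.14 for Serping1 over the 4 groups.

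C3 and C4b, the central components of the cascade, differed between libraries more than between groups. C3 averaged 218.0 ± 59.8 CPM in tamoxifen females (lowest 134.2, median 211.2, highest 409.9) and 237.1 ± 90.1 CPM in tamoxifen males (116.4, 223.7 and 503.3), against 194.0 ± 52.2 CPM in vehicle females (128.0, 177.9 and 343.0) and 209.4 ± 64.8 CPM in vehicle males (134.5, 199.2 and 390.9). The tamoxifen effect was 0.18 ± 0.12 in both sexes, with 95% intervals from -0.05 to 0.40 in females and from -0.04 to 0.41 in males. The sex difference was -0.11 ± 0.12 in both treatments. The highest C3 of all 96, 503.3 CPM, was in Tam_M_ct54_556, and Tam_F_ct54_559 held 409.9 CPM. C4b averaged 19.8 ± 7.23 CPM in tamoxifen females and 24.4 ± 10.3 CPM in tamoxifen males, against 18.8 ± 7.32 CPM in vehicle females and 28.6 ± 11.99 CPM in vehicle males. It was lower in females than in males in vehicle hearts, by -0.60 ± 0.15 on the log2 scale and at 11 of 12 times, and by -0.30 ± 0.15 at 9 of 12 times in tamoxifen hearts. Its tamoxifen effects were 0.08 ± 0.15 in females and -0.22 ± 0.15 in males, and without Tam_F_ct54_559 the female value was -0.01. The copy C4a, in mouse the sex-limited protein gene, was hardly counted, with means of 0.420 CPM in tamoxifen females and 0.354 CPM in tamoxifen males, against 0.421 CPM in vehicle females and 0.570 CPM in vehicle males. C3 and C4b varied together, with a median r within groups of 0.751, while C7 followed the other members weakly, with median r from 0.077 with C1qc to 0.409 with Serping1. Amplitudes ran from 0.08 to 0.26 for C3 and from 0.17 to 0.33 for C4b, each with an SE of 0.11 to 0.15. Without Tam_M_ct54_556 that of C3 in tamoxifen males was 0.09, against 0.21 with it, and without Tam_F_ct54_559 that of C4b in tamoxifen females was 0.05, against 0.17 with it. Without the libraries high in Myl7 the amplitude of C4b in vehicle females was 0.14, against 0.33 with them. The sex difference of C4b in vehicle hearts was then -0.87. The change of rhythm in males was 0.47 ± 0.16 for C3 (0.35 without Tam_M_ct54_556) and 0.41 ± 0.21 for C4b, and neither was called. Markers of hepatocytes, the cells that make most plasma C3 and C4, summed to at most 14.95 CPM in any library.

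Other complement genes that are not among the 8 were tested across all genes. Of 50 listed, 28 passed the filter on low counts, and the 22 others averaged at most 0.461 CPM, Cfb, C2, Hc, Cfi and Masp2 among them. With tamoxifen in females 6 rose and 6 fell, where 27.5% of all genes were called, with a median of -0.06 over the 28 (0.01 over all genes). In males 3 rose and 15 fell, where 70% of all genes were called, with a median of -0.17 (-0.05 over all genes). Between the sexes 5 were higher and 0 lower in females in tamoxifen hearts (7.68% of all genes called), while 4 were higher and 15 lower in females in vehicle hearts (68.3%). The interaction was called for 10 (52.3%), all positive, that is with a higher value in females than in males.

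Of the 4 soluble regulators tested 3 rose and 0 fell in females and 1 rose and 1 fell in males, and of the 5 membrane regulators 2 rose and 0 fell in females and 1 rose and 2 fell in males. With tamoxifen 27.5% of all genes were called in females and 70% in males. Cd55, a membrane protein that speeds the decay of the C3-splitting enzyme, rose in females (0.19 ± 0.08, adjusted p = 0.0479) and fell in males (-0.18 ± 0.08, adjusted p = 0.0367). Clu, clusterin, a chaperone that also restrains the membrane attack complex, rose in both sexes, by 0.19 ± 0.07 in females and 0.24 ± 0.07 in males (adjusted p = 0.0309 and 0.0024). Without the TEC-high vehicle male libraries the male value of Clu was -0.0012. Cd59a, the membrane inhibitor of C9, and Vtn, vitronectin, rose in females by 0.16 ± 0.04 and 0.15 ± 0.05 (adjusted p = 0.00187 and 0.0296), with male values of -0.01 ± 0.04 and -0.06 ± 0.05. Cd46, which helps factor I to cleave C3b, fell in males (-0.60 ± 0.08, adjusted p = 8.48e-10) with a female value of 0.01 ± 0.08. Cr1l, the rodent regulator Crry, rose slightly in males (0.07 ± 0.02, adjusted p = 0.00284), and its value was -0.01 when libraries were scaled by total counts alone.

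Of the 9 receptor genes tested, 4 fell in females and 6 in males, where 27.5% and 70% of all genes were called, with 0 rising in either sex. The called macrophage and endothelial markers given above also fell, and their part in these values was not tested. C5ar1, the receptor of the anaphylatoxin C5a, averaged 4.18 ± 0.792 CPM in tamoxifen females and 4.41 ± 0.966 CPM in tamoxifen males, against 5.02 ± 1.02 CPM in vehicle females and 6.79 ± 2.36 CPM in vehicle males, an effect of -0.26 ± 0.09 in females and -0.59 ± 0.09 in males (adjusted p = 0.0213 and 9.99e-09). C3ar1, the receptor of C3a, fell by 0.21 ± 0.08 in females and by 0.30 ± 0.08 in males (adjusted p = 0.0382 and 0.00058). Cfp, properdin, which stabilises the alternative pathway enzyme, fell by 0.23 ± 0.09 in females and by 0.53 ± 0.09 in males (adjusted p = 0.0362 and 1.14e-07). Itgb2, the beta chain of the C3 fragment receptors on leukocytes, and Cd93, once described as a C1q receptor, fell in males by 0.52 ± 0.10 and 0.29 ± 0.07 (adjusted p = 5.91e-06 and 0.00036), while their values in females were -0.23 ± 0.10 and -0.09 ± 0.07 (adjusted p = 0.0742 and 0.388). C1s1, the partner protease of C1ra, rose in females (0.23 ± 0.06, adjusted p = 0.000654) and fell in males (-0.17 ± 0.06, adjusted p = 0.00643). In the lectin pathway Masp1, its protease, rose in males (0.28 ± 0.10, adjusted p = 0.0141) and Colec11, a collectin, fell in males (-0.16 ± 0.06, adjusted p = 0.0142).

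**Figure D5:**
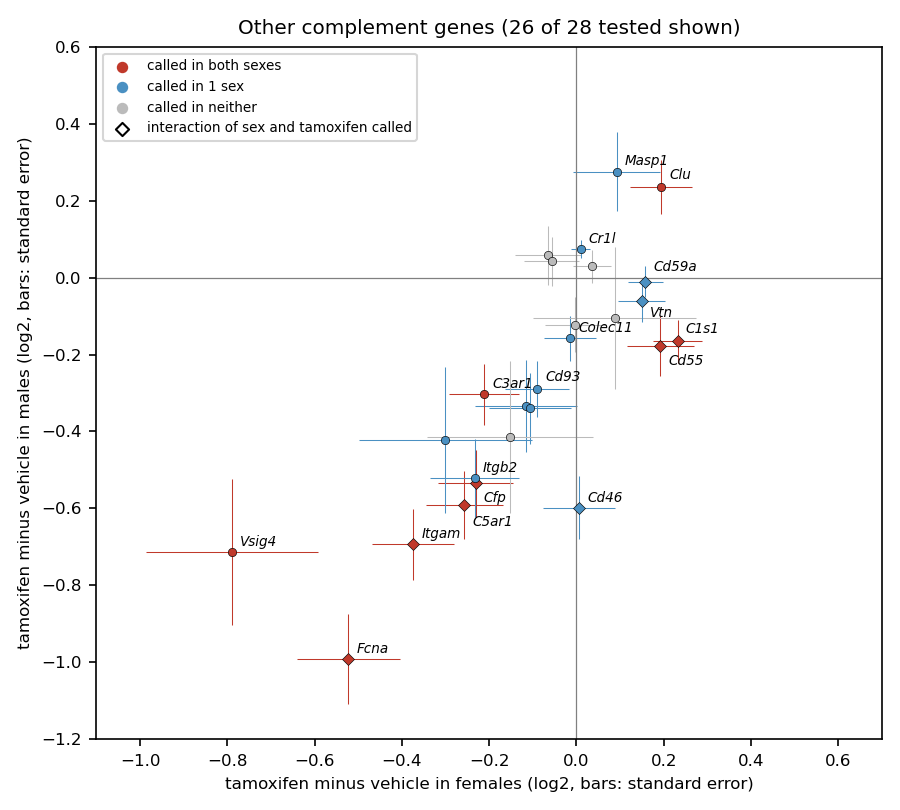
Tamoxifen minus vehicle differences of complement genes outside the 8 members in females (horizontal axis) and in males (vertical axis), on the log2 scale with standard errors. 26 of the 28 tested are drawn (Cfd, with SEs over 0.6, is among those left out), colours give how many sexes a gene was called in, diamonds mark a called interaction, and the genes at the lower left, with receptors and Fcna among them, were lower in both sexes.

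Rhythms were called for 2 of these 28 genes in tamoxifen females (17.1% of all genes) and 2 in tamoxifen males (8.03%), against 6 in vehicle females (34.5%) and 12 in vehicle males (55.2%). A change of rhythm with tamoxifen was called for 0 in females (0.237% of all genes; edgeR, 2 at an unadjusted p under 0.05) and for 7 in males (20.7%). Cr1l had the smallest p in vehicle males, with an amplitude of 0.17 ± 0.02 and a peak at ct 21.1 (adjusted p = 4.35e-08), and Cd46 an amplitude of 0.37 ± 0.08 with a peak at ct 7.1 (adjusted p = 0.000261). C1rl, a relative of C1r encoded beside C1ra, was the gene called in both tamoxifen groups, with 0.45 ± 0.12 in females and 0.49 ± 0.12 in males (adjusted p = 0.01 and 0.0121) and peaks at ct 7.2 and ct 6.8. Cfd, the adipocyte-derived factor D, had amplitudes of 3.35 ± 0.54 in tamoxifen females and 2.07 ± 0.75 in vehicle males (adjusted p = 1.09e-05 and 0.0467), with a median of 0.461 CPM and a highest library of 149.6 CPM in tamoxifen females. In vehicle males its median was 0.257 CPM, a median count of 3, and its highest library held 16.99 CPM. C1rl and Cfd, like C8g, were named after their values were seen, and without Tam_F_ct54_559 neither passed in tamoxifen females, where the count was then 0. Without the TEC-high libraries 4 genes were called in vehicle males, and 2 changes of rhythm in males.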

How the data were processed

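Poly-A RNA of ventricles was sequenced on an Illumina NovaSeq, per the labels' protocols. The authors deposited 1 table of whole-number counts per gene for 96 libraries, and the submitters' processing notes name HISAT2, Picard and HTSeq with builds GRCm38 and mm10, with versions and strand setting not given in the sources used here. All columns matched a library title. Of the 55376 entries, 26 had been turned into dates and held 0.1345% of counts.

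The counts were scaled by TMM and fitted with edgeR 4.0.16 (R 4.3.3, quasi-likelihood), 1 model with a level and a 24-h wave for each of the 4 groups (12 coefficients, 84 residual degrees of freedom), after a filter on low counts (minimum 10) that left 15629 genes. Adjusted p-values are Benjamini-Hochberg over these. The tests of mean level with tamoxifen were tried on simulated counts with changes in tamoxifen females alone. The tests of rhythm, of sex and of the interaction were not tried in this way. The CPM of Arntl, Xist, Ddx3y and Myl7 are relative to the total counts of a library, and all other CPM are TMM-scaled. CPM per kb used exon lengths of GENCODE M21. Alternatives were DESeq2 1.42.0, scaling by library size, no filter, a length and GC correction, each 24 h alone, each time left out, and libraries that stood apart left out.

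Members and gene lists were chosen with earlier results of these data known. Complement genes outside the 8 were named where called for tamoxifen in either sex with a mean of at least 5 CPM, at most 15 by size. C8g, C1rl, Cfd, Fcna, Itgam and Vsig4 were named after their values were seen. Counts cover all genes listed, and 1 of them is not reported here by itself.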

Additional observations from a re-analysis of the deposited data

Results flagged for a closer look

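For 9 complement genes outside the 8 members the tamoxifen effect differed between the sexes by the interaction test of the same model, with a Benjamini-Hochberg adjusted p under 0.05. The effect in females minus that in males was 0.6047 for Cd46, 0.4684 for Fcna, 0.3969 for C1s1, 0.3705 for Cd55, 0.3337 for C5ar1, 0.3196 for Itgam, 0.3036 for Cfp, 0.2096 for Vtn and 0.168 for Cd59a (log2). In each of them the value in females was the higher, and this interaction was called for 52.3% of all genes tested.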

How the results depend on the processing

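No paired analysis was possible because each library carries a number of its own. Over 23 alternatives, 203 called values of single genes outside the 8 lost the call and 4 turned direction. These 4 were Cfp in the interaction (-0.06217) and Itgb2 between the sexes in vehicle hearts (0.08899), both in the second 24 h alone, Clu with tamoxifen in males without the TEC-high libraries (-0.001227), and Cr1l with tamoxifen in males under library size alone (-0.01122). The cause was not tested.

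The smaller differences of the members, given without a test, crossed 0 under at least 1 alternative. With tamoxifen these were C7 (-0.15 to 0.02) and C4b (-0.01 to 0.25) in females and C1ra (-0.25 to 0.05) and Serping1 (-0.10 to 0.08) in males. Between the sexes they were C1ra (-0.15 to 0.11) and C3 (-0.23 to 0.01) in vehicle hearts and C1qb (-0.14 to 0.0046) in tamoxifen hearts, and the interactions of C7 (-0.10 to 0.12) and C3 (-0.20 to 0.15) did so too. Of the members, the tamoxifen count in females (5) was 2 in either 24 h alone and 2 to 5 with a time left out. The vehicle sex count (6) was 2 under the length and GC correction. The interaction count (3) was 5 under library size alone, 0 in the second 24 h, 6 without the Myl7-high libraries and 2 to 5 with a time left out.

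Of the other complement genes, the tamoxifen count in females (12) was 4 in the first 24 h, 5 in the second, 7 without the Myl7-high libraries and 7 to 11 with a time left out, and in males (18) it was 8 in the second 24 h. The sex count was 3 and 2 in the first and second 24 h in tamoxifen hearts (5), and 11 in the second in vehicle hearts (19). The interaction count (10) was 6 under the length and GC correction, 5 with no filter, 3 in the second 24 h, 4 without the TEC-high libraries and 6 to 13 with a time left out. Rhythm counts in tamoxifen females (2) were 0 in the first 24 h, 1 without the Myl7-high libraries, 0 without Tam_F_ct54_559, 5 without the TEC-high libraries and 0 to 4 with a time left out. In tamoxifen males (2) they were 1 under library size alone, 0 in the second 24 h, 1 without the Myl7-high libraries and 1 to 3 with a time left out. In vehicle females (6) they were 0 in the first 24 h, 3 with no filter, 10 without the TEC-high libraries and 3 to 8 with a time left out. In vehicle males (12) they were 3 in the second 24 h, 7 without the Myl7-high libraries and 4 without the TEC-high libraries. The change of rhythm in males (7) was called for 0 in the second 24 h, 4 without the Myl7-high libraries, 2 without the TEC-high libraries and 3 to 8 with a time left out, and that in females (0) for 0 to 1.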
